A study of Mus musculus with 9 samples.

Results

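Retinas of mice that received the peptide AAP in the vitreous were compared with retinas of mice that received phosphate-buffered saline (PBS), 7 days after the injection. The comparison used 6 of the 9 arrays of the series, namely the 3 labelled as AAP and the 3 labelled as control. The other 3 arrays measured retinas injected with a second peptide, HAN. Their values are given only beside AAP values, but all 9 arrays entered the filter on dim probes and the fit behind the standard errors, intervals and p-values. All animals were adult male C57BL/6 mice with no stated genetic change, and the right eye was injected. The series title presents AAP and HAN as peptides with high affinity for vascular endothelial growth factor (VEGF), and the labels word the amount, 1 µM, for PBS as well as for the peptides. Each group had 12 mice, and 4 retinas were pooled for each array, so a replicate here is a pool. A p-value here therefore reflects how much the pools varied within each of the 3 groups, HAN included, not how much mice varied. Genes on fixed lists of skeletal muscle and lens transcripts, 142 of the 23895 genes measured, were kept in the fit and are left out of the genes described.

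VEGF is a secreted growth factor that acts on endothelial cells through the receptors Flt1 and Kdr, with neuropilins as co-receptors, and it drives vessel growth and leakage in eye disease. The retina also holds microglia, its resident macrophages, and Müller glia, which span its layers. After injury or injection, both cell types are known for a reactive response. Müller glia then raise Gfap and acute-phase genes that lie downstream of interleukin 6 family cytokines and Stat3, while microglia turn up phagocytic receptors, lysosomal proteases and complement.

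Levels are log2 signals relative to the 75th percentile of the same array, so a negative level lies below that percentile. The signal at that percentile was 2293, 2087 and 1881 in PBS pools 1 to 3 and 1993, 1898 and 1319 in AAP pools 1 to 3, which makes AAP 3 the dimmest array. Between 75.2% and 79.2% of probes were well above background in the PBS pools and between 71.6% and 75.9% in the AAP pools. Retinal identity was plain in all pools: Sag, which encodes the rod arrestin, lay at 6.21, 6.57 and 6.55 in the PBS pools and at 6.36, 6.47 and 6.44 in the AAP pools, and glutamine synthetase (Glul), the Müller glia enzyme, lay between 4.91 and 5.26 in all 6. The AAP pools did not form a tight group. Skeletal muscle genes had a median difference from the PBS mean of 0.96 in AAP 1, -0.06 in AAP 2 and 0.57 in AAP 3, and lens genes one of -1.27, 2.29 and -1.80. AAP 1 shared a slide with the 3 PBS pools, while AAP 2 and AAP 3 were on a second slide, so slide and treatment cannot be told apart for those 2 pools. In bulk RNA, fewer cells of a type and less RNA per cell cannot be told apart either.

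At gene level the groups were close. With limma and Benjamini-Hochberg adjustment over 23895 genes, 1 transcript passed an adjusted p of 0.05, or 0.00418% of those tested; it was higher after AAP, and no gene passed as lower. At an unadjusted p under 0.05 there were 720 genes lower (3.01%) and 911 higher (3.81%). Genes whose 3 AAP pools all lay below all 3 PBS pools numbered 1493, or 6.25%, and those with all AAP pools above numbered 1424, or 5.96%. These shares are the background for every count below. With a pool left out, fewer samples separate more easily: the shares lower and higher were 13.3% and 12.1% of all genes without AAP 1, 15.1% and 14% without AAP 2, and 10.2% and 7.81% without AAP 3. The estimated change was under 1.5-fold for 96.5% of genes, and the median half-width of the 95% interval was 1.18-fold.

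The individual pools went further than the group means. Leaving out muscle and lens genes, AAP 1 had 125 genes at least 1.5-fold below the lowest PBS pool and 602 at least 1.5-fold above the highest. AAP 2 had 218 and 191, and AAP 3 had 827 and 384. Only 14 genes were that far below PBS in all 3 AAP pools, and 2 transcripts were that far above. The 14 were Abcg5, Bcl3, Calca, Cd300c2, Cebpd, Clec4d, Egr2, Lcn2, Mpeg1, Myh11, Slc15a3, Timp1, Tmem273 and Trem2. Most are known as acute-phase, injury-response or myeloid genes, and none passed the adjusted test. Abcg5, Clec4d, Egr2 and Tmem273 passed the filter on dim probes only through the PBS pools, the group where they were highest. Their place among the 14 thus rests on signal near background in the AAP pools.

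**Figure D1:**
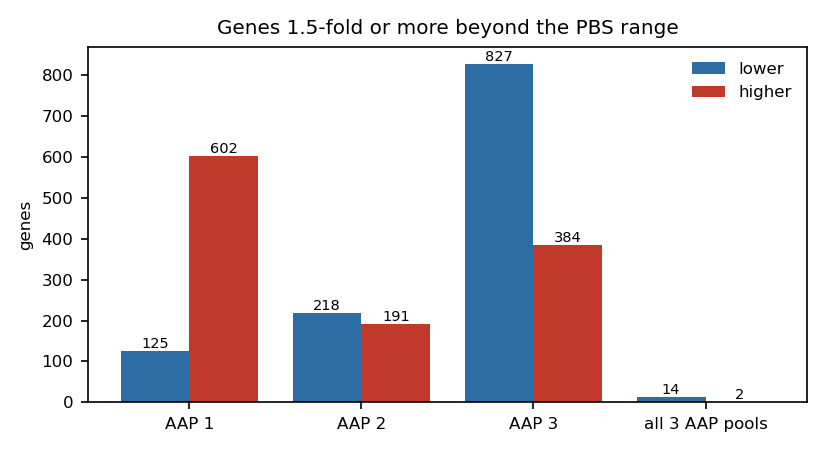
Number of genes (vertical axis) that lay at least 1.5-fold below the lowest PBS pool (blue) or above the highest PBS pool (red) in AAP 1, AAP 2, AAP 3 and in all 3 AAP pools, without muscle and lens genes. AAP 1 was mostly higher (602 against 125), AAP 3 mostly lower (827 against 384), and 14 and 2 genes were shared by all 3.

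Acute-phase and reactive glia genes included several of the lowest genes after AAP. Of 57 measured members of that list, 20 (35.1%) were lower in every AAP pool and 0 were higher in every AAP pool, against 6.25% and 5.96% of all genes, and the median difference was -0.55 against -0.0045 for all genes. Timp1, which encodes a secreted inhibitor of metalloproteinases and is induced in reactive glia, lay at 0.03, -1.38 and -0.75 in the PBS pools and at -2.71, -2.67 and -3.90 in the AAP pools. All 3 AAP pools were low and the nearest pools were 1.29 apart on the log2 scale. The mean difference was -2.39 with a standard error of 0.49, a level 5.24-fold lower after AAP (95% interval of the difference -3.52 to -1.26, limma adjusted p = 0.623). Lcn2, which encodes the siderophore-binding acute-phase protein lipocalin 2, lay at 1.22, 1.13 and 1.29 after PBS and at 0.48, -0.29 and -1.61 after AAP. The PBS pools were tight, and AAP 1 was the nearest to them. Its mean difference was -1.69 ± 0.48 (standard error, limma adjusted p = 0.673).

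Transcription factors and signalling genes of the acute phase lay on the same side of PBS. Cebpd, a transcription factor of the acute phase, lay between 2.90 and 3.02 in the PBS pools and at 2.30, 1.61 and 0.68 in the AAP pools, a mean difference of -1.42. Bcl3, an atypical IκB family protein that acts with NF-κB in the nucleus, lay between -0.27 and 0.28 after PBS and at -0.91, -1.77 and -3.99 after AAP, a mean difference of -2.25. In both genes AAP 1 was nearest to PBS and AAP 3 farthest. Socs3, the feedback inhibitor of Stat3 signalling, differed from the PBS mean by -0.77, -1.29 and -2.80 in AAP 1 to 3, and Stat3 itself by -0.26, -0.37 and -1.01. Gfap, the intermediate filament of reactive glia, differed by -0.86, -0.99 and -1.95. Socs3, Stat3 and Gfap are described for their place in the pathway and were picked with their values in view. The 20 separated members were Edn2, Timp1, Bcl3, Lcn2, Socs3, Cebpd, Gfap, Fgf2, Plaur, A2m, Gadd45b, Spp1, Atf3, Tnfrsf12a, Plat, Stat3, Nes, Il6st, Amigo2 and Gap43.

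Other injury genes on this list had smaller differences. Tnfrsf12a, the receptor for the cytokine TWEAK, lay at 0.09, 0.31 and -0.03 after PBS and at -0.49, -0.60 and -0.83 after AAP. The groups were separated, with all AAP pools low by a like amount. Its mean difference was -0.76 ± 0.14 (standard error, limma unadjusted p = 0.00066, adjusted p = 0.614). Spp1, which encodes osteopontin, differed from the PBS mean by -0.81, -0.48 and -1.22 in AAP 1 to 3. Of the plasminogen system, Plat, tissue plasminogen activator, differed by -0.37, -0.81 and -0.98. Plaur, the urokinase receptor, had a measured difference of -1.09, but its probe was well above background in only 1 of 3 AAP pools. Edn2, an endothelin that photoreceptors release under stress, was carried by 1 pool, with differences of -0.86, -1.20 and -5.32. Without AAP 3 its mean difference was -1.03 in place of -2.46.

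AAP 3 took the lowest value for most of these genes. The list's median difference was -0.27 in AAP 1, -0.37 in AAP 2 and -1.24 in AAP 3, and without AAP 3 it was -0.30. Without AAP 3, 20 of 57 members (35.1%) were still lower in every AAP pool, against 10.2% of all genes in that smaller comparison. AAP 3 was also the array with the lowest signal, and its part in the size of these differences was not tested. Within the first slide, where AAP 1 is the only AAP pool, Lcn2 was at -0.73 and Cebpd at -0.65 from the PBS mean.

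**Figure D2:**
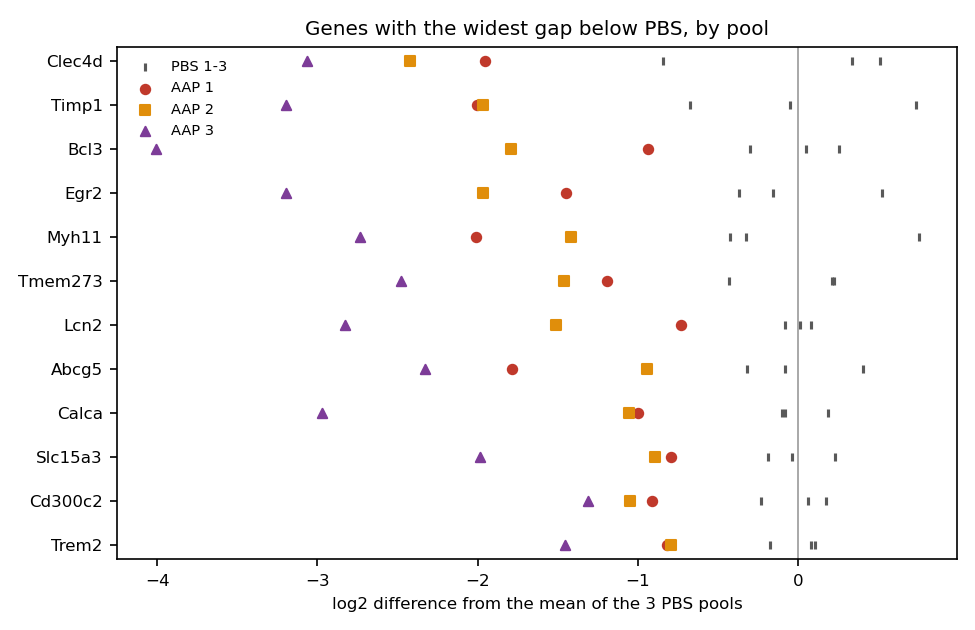
The 12 named genes with the widest gap below PBS, one per row, with the log2 difference from the PBS mean on the horizontal axis. Grey ticks are the 3 PBS pools, and the circle, square and triangle are AAP 1, 2 and 3; every AAP symbol lies left of every PBS tick, and AAP 3 is the lowest in all 12 rows. No AAP pool had Abcg5, Egr2 or Tmem273 well above background.

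Microglia and macrophage genes were the list with the largest share of separated members. Of 48 measured, 30 (62.5%) were lower in every AAP pool and 1 (2.08%) was higher in every AAP pool, while 27 were lower at an unadjusted p under 0.05 and 0 passed the adjusted test. The median difference was -0.65, with -0.32, -0.63 and -1.18 in AAP 1 to 3. The list's summed linear level, which weights bright members most, was not lower. It was 189, 190 and 190 in the PBS pools and 192, 195 and 207 in the AAP pools. The separated members covered surface receptors, signalling adaptors and effectors, and included Ms4a7, Cd53, Fcgr3, Tyrobp, Laptm5, Trem2, Mpeg1, C1qa, C1qb, Fyb, Ly86, Ctss, C1qc, Adgre1, Aif1, Fcer1g, Vav1, P2ry13, Cyba, Irf8, Ptprc, Itgb2, P2ry12, Cx3cr1, Fcgr1, Ncf1, Selplg and Cd83. The 1 separated in the other direction was Siglech, at 0.16. The count was 30 of 48 without AAP 3 and 39 of 48 without AAP 1, against 10.2% and 13.3% of all genes. With normexp background correction in place of the scanner's it was 23 of 48 (47.9% against 3.72%), and with arrays centred on their median it was 33 of 48 (68.8% against 7.16%).

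Phagocyte receptors were among the genes named for their gap below PBS. Clec4d, a C-type lectin receptor of myeloid cells, lay at -3.46, -4.64 and -3.28 after PBS and at -5.75, -6.22 and -6.86 after AAP. Only 1 of 3 AAP pools had this probe well above background, so its measured mean difference of -2.48 (limma adjusted p = 0.631) rests partly on signal near background. Trem2, the lipid-sensing receptor that signals through Tyrobp, lay at -0.19, 0.09 and 0.06 after PBS and at -0.83, -0.81 and -1.47 after AAP. AAP 1 and AAP 2 were alike and AAP 3 lower, with no overlap with PBS. The mean difference of Trem2 was -1.02 ± 0.34 (standard error, limma adjusted p = 0.673), and Tyrobp, singled out as its partner, stood at -1.15. Cd300c2, another receptor of the myeloid surface, differed from the PBS mean by -0.91, -1.05 and -1.31 in AAP 1 to 3, the most even of these genes. Ms4a7, a membrane protein of macrophages, differed by -0.95, -1.31 and -2.17, and the lysosomal membrane protein Laptm5 by -0.56, -0.93 and -1.68.

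Markers of resident microglia were on the same list. Cx3cr1, the fractalkine receptor, was at -0.44, and P2ry12, the ADP receptor of surveying microglia, at -0.54, both with values chosen for description after they were seen. Of the other defining markers, Csf1r was at -0.14, Tmem119 at -0.28 and Sall1 at 0.38, and all 3 overlapped with PBS. Lyz2, lysozyme of macrophages, had a wide difference of -1.96 with overlapping pools, because PBS 2 at -2.87 lay below AAP 1 at -2.86. Of 23 blood leukocyte markers on the array, 11 did not pass the filter on dim probes, and the 12 measured had a median difference of -0.07 and a summed linear level of 8.59 to 9.21 in PBS and 7.84 to 9.10 in AAP pools.

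Lysosomal and phagocytosis genes had smaller differences on the same side. Of 29 measured, 10 (34.5%) were lower in every AAP pool and 0 higher, and the median difference was -0.32. Without AAP 1 the count was 17 of 29 (58.6%). The separated genes were Gpnmb, Cst7, Pros1, Ctsz, Ctsd, Cd63, Ctsb, Hexa, Lgmn and Cst3. Ctsz, a cysteine cathepsin, lay at 1.65, 1.55 and 1.63 after PBS and at 1.33, 1.35 and 1.07 after AAP, a mean difference of -0.36 ± 0.09 (standard error, limma adjusted p = 0.646). Ctsd, the aspartic cathepsin, differed by -0.24 in AAP 1, by -0.24 in AAP 2 and by -0.51 in AAP 3. Pros1, a ligand that bridges dying cells to phagocyte receptors, differed by -0.32, -0.69 and -0.85. Mertk, the receptor with which pigment epithelium takes up outer segments, was at 0.09 and is named for that role after its value was seen.

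Complement and coagulation genes had 9 of 27 measured members (33.3%) lower in every AAP pool and 0 higher. The C1q chains, which start the classical pathway, were lowest in AAP 3: C1qa differed by -0.59, -0.77 and -1.36 in AAP 1 to 3, and C1qb by -0.56, -0.82 and -1.30. Cfi, the protease that degrades active complement fragments, ran the other way among the pools, with -1.44, -0.89 and -0.25, and so was farthest from PBS in AAP 1. The other separated genes were C1qc, C2, C3ar1, Plat, Pros1 and Thbd, several of which also stand on the lists above. C3, the central component, was at -0.68 and C4b at -1.70, and both overlapped with PBS. The list's median difference was -0.68, with -0.26, -0.70 and -0.96 in AAP 1 to 3. It was -0.39 without AAP 3, and without AAP 1 the count was 18 of 27 (66.7%). The list's summed linear level was 293, 308 and 334 in the PBS pools and 322, 349 and 433 in the AAP pools.

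**Figure D3:**
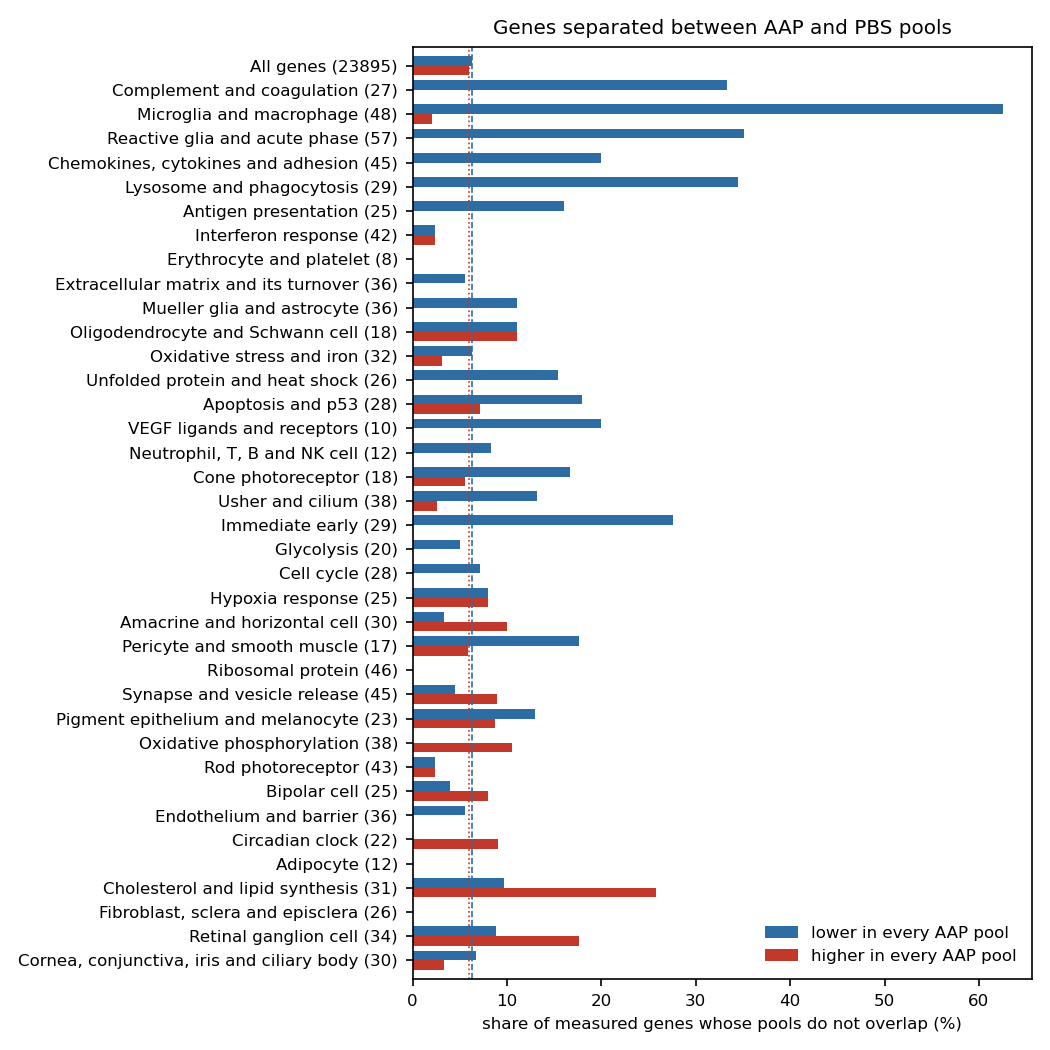
Share of each list's measured genes (horizontal axis, %) that were lower (blue) or higher (red) in every AAP pool than in every PBS pool, with the number measured in brackets and dashed (lower) and dotted (higher) lines at the shares for all genes. Microglia stand at 62.5% lower against 6.25%, and cholesterol synthesis at 25.8% higher against 5.96%.

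Cytokine and adhesion genes depended on the pool. Of 45 measured chemokine, cytokine and adhesion genes, 9 (20%) were lower in every AAP pool and 0 higher. The median difference was -0.33, with -0.06, -0.36 and -0.71 in AAP 1 to 3, and without AAP 1 the count was 30 of 45 (66.7%). Tnfrsf1b, the inducible receptor for tumour necrosis factor, lay at -5.14, -5.75 and -5.15 after PBS and at -6.68, -6.31 and -7.99 after AAP, where no pool had it well above background. Its level was at least 1.88-fold lower after AAP (limma adjusted p = 0.646). For such bounds, each pool of the dimmer group was set to the higher of the gene's own signal and the array's dimmest signal well above background. Ticam1, the adaptor of the double-stranded RNA receptor, varied little, with differences of -0.24, -0.37 and -0.38 and a mean of -0.33 ± 0.06 (standard error, limma unadjusted p = 0.000629, adjusted p = 0.614). Vcam1, a leukocyte adhesion molecule, differed by -0.31, -0.34 and -0.71, and Relb, a subunit of NF-κB, by -0.26, -0.22 and -0.11. With normexp background correction the count was 6 of 45 (13.3% against 3.72%).

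In the interferon list, 1 of 42 measured genes (2.38%) was lower in every AAP pool and 1 was higher, shares below the background; without AAP 1 the count lower was 9 of 42 (21.4% against 13.3%). Its median difference was -0.01 in AAP 1, -0.04 in AAP 2 and -1.01 in AAP 3, while the PBS pools spread from -0.30 to 0.34. Bst2, an antiviral membrane tether, was the gene separated below, with differences of -0.29, -0.32 and -1.26, and Iigp1, an interferon-induced GTPase, the one separated above, at 0.15, 0.40 and 0.17. Of the antigen presentation list, which holds class I and class II genes, 4 of 25 (16%) were lower in every AAP pool, and 13 of 25 (52%) without AAP 1. B2m, which encodes the class I light chain, differed by -0.32, -0.50 and -1.34, and H2-K1, a class I heavy chain, by 0.05, -0.49 and -0.94. AAP 1 thus had microglial and complement medians below PBS without a lower antigen presentation median, which was 0.05 in that pool.

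**Figure D4:**
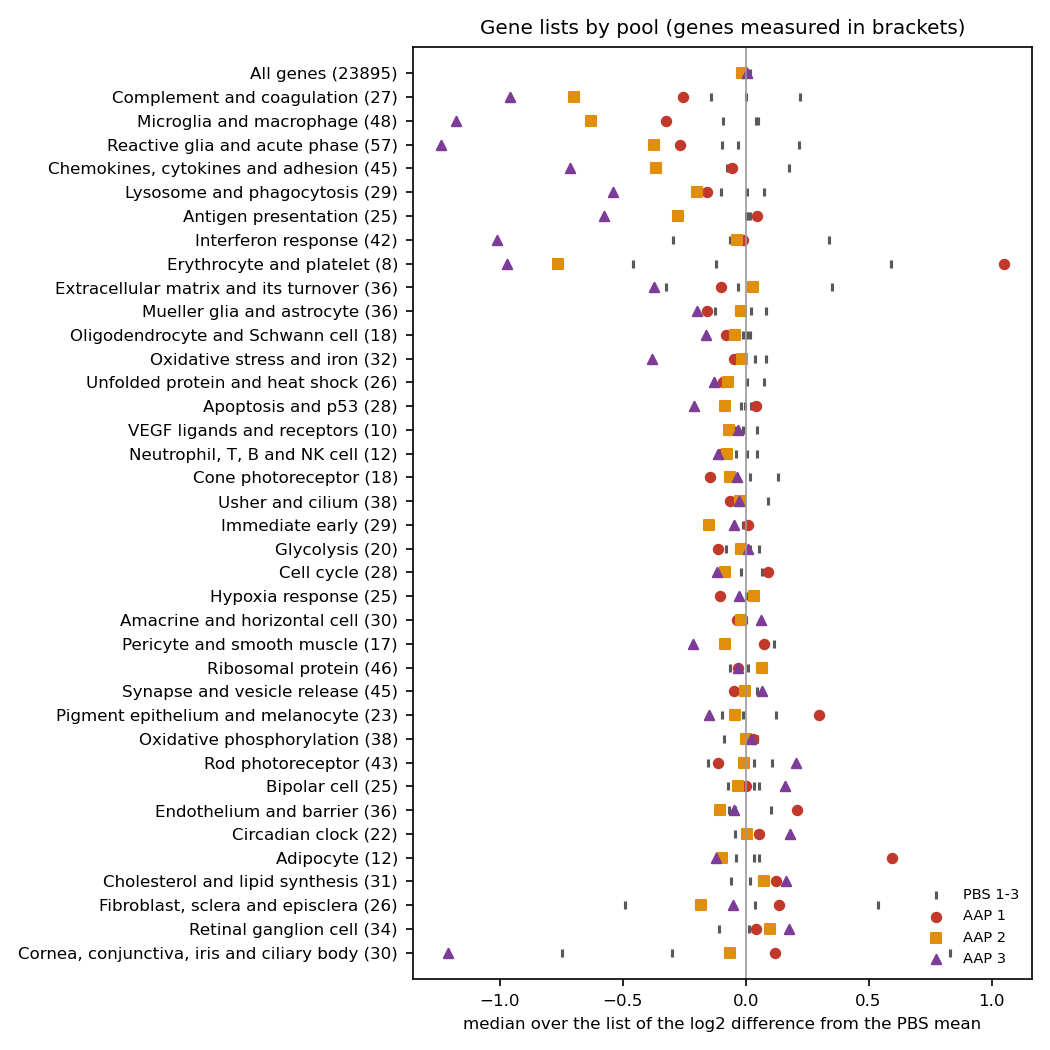
Median over each list of the log2 difference from the PBS mean (horizontal axis) in the 3 PBS pools (grey ticks) and in AAP 1 (circle), AAP 2 (square) and AAP 3 (triangle), with all genes on top and the number measured in brackets. The 3 AAP pools lie at -0.32, -0.63 and -1.18 for microglia, whereas for interferon genes AAP 3 stands alone at -1.01.

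Immediate early genes, which report recent activity or stress, had 8 of 29 measured members (27.6%) lower in every AAP pool and 0 higher, at a median difference of -0.04. The 8 were Egr2, Atf3, Egr1, Junb, Fosb, Jun, Fos and Nr4a2. Egr2, a zinc finger factor of myeloid and Schwann cells as well, lay at -5.24, -4.56 and -5.45 after PBS and at -6.53, -7.05 and -8.28 after AAP. No AAP pool had it well above background, and it was at least 2.25-fold lower there. Atf3, a stress factor of injured neurons and glia, differed by -0.48, -0.75 and -1.10. Egr4, a neuronal member of the Egr family, stood on the other side at 0.21, 0.92 and 0.95, with AAP 1 inside the PBS range, and Bdnf, an activity-dependent neurotrophin, at 0.13, 0.29 and 0.40.

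The target pathway of the peptides differed little. On its brightest probe, Vegfa lay at 1.57, 1.55 and 1.43 after PBS and at 1.65, 1.53 and 1.49 after AAP. The mean difference was 0.04 with a 95% interval of -0.16 to 0.23, and its sign turned when AAP 1 was left out (-0.0084). A dimmer Vegfa probe had a mean difference of 0.24, above that interval. Kdr, the main signalling receptor, was at -0.12 (interval -0.37 to 0.13), and Flt1, the high-affinity receptor, at 0.11 (interval -0.09 to 0.30), negative at -0.07 in AAP 2. Nrp1, a co-receptor, differed by -0.32, -0.23 and -0.24 and was separated from PBS, as was the ligand Vegfb at -0.18, -0.06 and -0.08. These are 2 of the list's 10 genes. The nearest pools were 0.068 apart on the log2 scale for Nrp1 and only 0.0038 apart for Vegfb, so the Vegfb groups nearly touched. Pgf, placental growth factor, was at -0.45 with overlapping pools (interval -0.94 to 0.03). Endothelial and barrier genes had a median difference of 0.03, with 2 of 36 lower and 0 higher in every AAP pool. Without AAP 1, 8 of 36 were lower (22.2% against 13.3%), and without AAP 2, 7 of 36 were higher (19.4% against 14%).

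The pericyte and smooth muscle list ran both ways. Of 17 measured genes, 9 were lower and 8 higher on average, 3 (17.6%) were lower and 1 (5.88%, Higd1b at 0.17) higher in every AAP pool, and the median difference was -0.02. Myh11, the heavy chain of smooth muscle myosin, lay at -3.94, -2.86 and -4.05 after PBS and at -5.63, -5.03 and -6.35 after AAP, a mean difference of -2.05 (limma adjusted p = 0.638), with 2 of 3 AAP pools well above background. Myl9 and Tagln, also of contractile cells, were separated from PBS at -0.78 and -0.52, and Rgs5, a pericyte gene, overlapped at -0.31. Of the matrix genes, Adamts1, a secreted metalloproteinase, differed by -0.44, -0.59 and -0.80 (mean -0.61, limma adjusted p = 0.631). Calca, which encodes the vasodilator peptide CGRP, lay between -2.33 and -2.04 after PBS and at -3.22, -3.28 and -5.20 after AAP. The mean difference of Calca was -1.68 on this probe and -0.41 on a second, dimmer probe. Smooth muscle and such nerve fibres also lie in iris and ciliary body. The list for cornea, conjunctiva, iris and ciliary body had 30 of 41 genes measured, and its summed linear level ran from 62.9 to 120 in the PBS pools and from 60.5 to 163 in the AAP pools. Of the 30, 2 (6.67%) were lower and 1 (3.33%) higher in every AAP pool, at a median difference of 0.145. The melanocyte gene Mlana of this list was separated from PBS at -1.44, -0.47 and -2.21, and Pmel of the pigment list likewise at -1.58, -0.54 and -1.83. The pigment list ran both ways: of 23 measured, 3 (13%) were lower and 2 (8.7%) higher in every AAP pool, at a median difference of 0.01. The part of such tissue in the contractile genes was not tested. Other dim genes gave bounds only: Abcg5, a sterol exporter, was at least 1.25-fold lower after AAP and the membrane protein gene Tmem273 at least 1.53-fold lower, and no AAP pool had either well above background.

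Among the named genes with a symbol, Clrn1 had the smallest p-value. It encodes clarin 1, the membrane protein mutated in Usher syndrome type III, and lay at -3.50, -3.57 and -3.45 after PBS and at -4.07, -4.01 and -4.08 after AAP. Both groups were tight, and the difference was nearly equal in all AAP pools at -0.56, -0.51 and -0.58. The mean was -0.55 ± 0.06 (standard error; 95% interval -0.69 to -0.40; limma unadjusted p = 2.64e-05, adjusted p = 0.158). It was -0.56 on the slide shared with PBS, and over the alternatives it ranged from -0.58 to -0.23 with adjusted p from 0.0982 to 1. In the whole Usher and cilium list, Clrn1 included, 5 of 38 (13.2%) were lower and 1 higher in every AAP pool, at a median difference of -0.05. The count lower was 10 of 38 without AAP 2 (26.3% against 15.1%).

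Among the neuronal lists in the main scaling, rods were near the background and cones and ganglion cells above it. Rod genes had 1 of 43 (2.33%) separated in each direction and a median difference of 0.03. Cone genes had 3 of 18 lower (16.7%), among them Gnb3, the cone transducin beta subunit, at -0.27, -0.51 and -0.29. With arrays centred on their median the cone count was 1 of 18 (5.56% against 7.16%), so the cone share depended on the scaling. Rcvrn, which encodes the calcium sensor recoverin, was separated at -0.33, -0.16 and -0.28. Retinal ganglion cell genes had 6 of 34 (17.6%) higher in every AAP pool, namely Elavl2, Pou4f1, Syt2, Pou4f2, Irx2 and Rbpms2, and 3 lower, of which Spp1 and Gap43 are also on the injury list. Pou4f2, a transcription factor that defines ganglion cells, lay at -0.92, -1.25 and -0.86 after PBS and at -0.76, -0.74 and -0.63 after AAP. With arrays centred on their median the count higher was 2 of 34 (5.88% against 3.03%). With normexp background correction it was 4 of 34 (11.8% against 10.6%), near the share of all genes. It was 11 of 34 without AAP 1 (32.4% against 12.1%) and 10 of 34 without AAP 2 (29.4% against 14%). Without AAP 3 it was 6 of 34 (17.6% against 7.81%). Müller glia genes had 4 of 36 lower (11.1%). Among them were the water channel Aqp4 at -0.28, -0.15 and -0.48 and the thyroid-hormone-binding protein Crym at -0.43, -0.55 and -0.70. Without AAP 1 the Müller count lower was 4 of 36 (11.1% against 13.3%). It was 15 of 36 without AAP 2 (41.7% against 15.1%) and 7 of 36 without AAP 3 (19.4% against 10.2%).

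Cholesterol synthesis was the list with the largest share of members higher in every AAP pool, 8 of 31 (25.8% against 5.96%), with 3 lower. They included Cyp51, Msmo1, Stard4, Idi1, Fdps, Sqle and Insig1, most of them enzymes of the mevalonate and sterol steps. Sqle, squalene epoxidase, lay at 1.69, 1.51 and 1.58 after PBS and at 1.92, 1.75 and 1.93 after AAP, a mean difference of 0.28 ± 0.09 (standard error, limma adjusted p = 0.673). Fdps differed by 0.30, 0.13 and 0.35, and Idi1 by 0.33, 0.09 and 0.32, so AAP 2 was nearest to PBS in each. The 3 lower genes were Abca1, which exports cholesterol, Fads2 and Fasn. The count was 9 of 31 without AAP 3 (29%), 17 without AAP 2 (54.8%), 13 with normexp background correction (41.9% against 10.6%) and 5 with quantile normalisation (16.1% against 4.88%).

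Single genes with the widest gaps above PBS were of mixed kinds. Gdnf, the glial neurotrophic factor that supports photoreceptors and ganglion cells, lay at -6.75, -6.34 and -6.42 after PBS and at -5.71, -5.59 and -6.03 after AAP, a mean difference of 0.73 ± 0.21 (standard error, limma adjusted p = 0.673). Spry4, a feedback inhibitor of growth factor signalling, differed by 0.73, 0.44 and 0.67 (mean 0.61, limma unadjusted p = 0.00107, adjusted p = 0.623). Both were higher in every AAP pool than in any PBS pool. Wdr45b, an autophagy protein, differed by 0.41, 0.49 and 0.73. The mean difference of Wdr45b was 0.54 on this probe and 0.14 on a second, dimmer probe. Depp1, a target of FOXO factors, was well above background in 2 of 3 PBS and 1 of 3 AAP pools, so its measured difference of 0.63 is uncertain. Tfrc, the transferrin receptor, lay at -0.01, -0.17 and -0.16 after PBS and at 0.19, 0.25 and 0.29 after AAP. Ciart, a repressor of the circadian clock, differed by 0.27, 0.49 and 0.65, and the splicing factor Cwc25 by 0.47, 0.43 and 0.37. Gcm1, a transcription factor gene with 3 probes that all gave the same sign, lay between 6.64 and 6.86 after PBS and between 7.13 and 7.42 after AAP. This signal was above that of Sag in every pool, and whether the probes report Gcm1 RNA alone was not tested. Mlph, a melanosome transport protein, reached 1.63 on uneven values of 0.60, 1.98 and 2.31. Dupd1, Myl10 and Sh3bgr, which the rule also named, are muscle genes missing from the fixed list, at 1.75, 1.41 and 0.89, and each was highest in AAP 1, as the muscle list was.

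**Figure D5:**
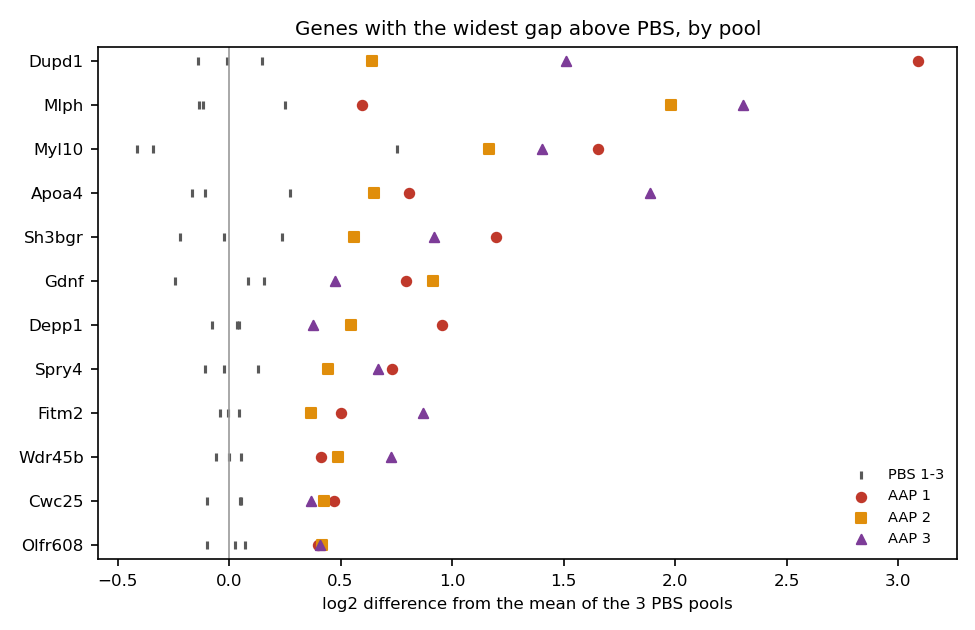
The 12 named genes with the widest gap above PBS, one per row, with the log2 difference from the PBS mean on the horizontal axis. Grey ticks are the 3 PBS pools, and the circle, square and triangle are AAP 1, 2 and 3; the muscle gene Dupd1 is spread from 0.64 to 3.09, while Cwc25 lies between 0.37 and 0.47.

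The 1 transcript that passed the adjusted test has no gene symbol in the array annotation, which gives it as ENSMUST00000072628. It lay at -4.56, -4.52 and -4.69 after PBS and at -3.52, -3.36 and -3.25 after AAP. Both groups were tight, and it rose by 1.21 ± 0.09 on the log2 scale, or 2.32-fold (95% interval 1.00 to 1.42, limma adjusted p = 0.0265). Adjusted p over the alternatives ran from 0.0165 to 1. It is named because it passed, outside the rule for named genes. In HAN pools 1 to 3 this transcript differed from the PBS mean by 1.67, 1.81 and 1.64, more than in any AAP pool. The other transcript at least 1.5-fold above PBS in all 3 pools, known only by its probe A_55_P2148041, was not well above background in any PBS pool and was at least 2.12-fold higher after AAP.

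Stretches of sequence before the start sites of Lcn2, Timp1 and Trem2 are printed because these genes were low in all 3 AAP pools and stand for the acute-phase, matrix and phagocyte groups. They are the 250 bases upstream of the RefSeq start on build GRCm38.p6, read 5′ to 3′ on the gene's strand, with motif matches in capitals. Lcn2 is at chr2:32387740-32387989 on the minus strand, Timp1 at chrX:20869916-20870165 on the plus strand and Trem2 at chr17:48346151-48346400 on the plus strand.
Lcn2: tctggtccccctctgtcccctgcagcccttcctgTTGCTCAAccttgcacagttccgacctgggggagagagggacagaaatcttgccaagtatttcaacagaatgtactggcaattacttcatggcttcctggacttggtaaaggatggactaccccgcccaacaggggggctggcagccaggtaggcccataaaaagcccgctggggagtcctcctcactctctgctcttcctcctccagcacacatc
Timp1: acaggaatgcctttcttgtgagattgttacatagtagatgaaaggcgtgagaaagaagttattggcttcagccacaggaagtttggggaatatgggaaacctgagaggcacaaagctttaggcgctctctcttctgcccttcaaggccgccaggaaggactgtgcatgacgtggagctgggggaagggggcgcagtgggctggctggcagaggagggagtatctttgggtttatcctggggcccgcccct
Trem2: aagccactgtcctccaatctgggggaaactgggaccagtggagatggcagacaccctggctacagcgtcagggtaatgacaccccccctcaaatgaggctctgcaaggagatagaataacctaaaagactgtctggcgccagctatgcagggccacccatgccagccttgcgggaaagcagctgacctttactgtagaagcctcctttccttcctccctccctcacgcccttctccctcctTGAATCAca

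Motifs were searched on both strands of the 250 bases of 27025 promoters, and of the 14 genes low in all pools 11 had a promoter in the RefSeq table. The C/EBP motif TTGCNNAA was present in 9.55% of all promoters and in Lcn2 and Tmem273, and in Lcn2 the match TTGCTCAA starts 216 bases before the start site. The AP-1 motif TGANTCA was present in 6.87% of all promoters and in Trem2, where the match TGAATCA starts 9 bases before the start site. The STAT motif TTCNNNGAA (7.18% of promoters) and the PU.1 motif GAGGAAGT (2.44%) had 0 matches among the 11. A match describes letters in this window and not a bound site.

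HAN values are set beside those of AAP, since both were compared with the same PBS pools. The microglia list had a median difference from PBS of -0.65 after AAP and -0.38 after HAN, and the acute-phase list one of -0.55 and -0.16. Timp1 was at -2.39 after AAP and -0.76 after HAN, Lcn2 at -1.69 and -0.97, Trem2 at -1.02 and -0.80, and Clrn1 at -0.55 and -0.26. The interferon median was -0.29 after AAP and -0.46 after HAN. Cd300c2 was at -1.09 after AAP and -1.05 after HAN. Of the genes above PBS, Ciart was at 0.47 and 0.53, Tfrc at 0.36 and 0.43, Cwc25 at 0.42 and 0.43, and Gcm1 at 0.49 and 0.45. Spry4 was at 0.61 after AAP and 0.05 after HAN, and Gdnf at 0.73 and 0.19. In the direct contrast of AAP against HAN, 0 of 23895 genes passed an adjusted p of 0.05 with limma, and 2096 had an unadjusted p under 0.05. Among the genes named here, Timp1 differed by -1.63 between the peptides (interval -2.75 to -0.50, limma adjusted p = 0.562) and Lcn2 by -0.72 (interval -1.85 to 0.40, adjusted p = 0.624), so neither passed the adjusted test.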

How the data were processed

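Per the labels' protocols, total RNA was extracted with Trizol from pools of 4 retinas and labelled with 1 dye. Scanner files and a table of values were deposited. Agilent Feature Extraction 11.0.1.1 measured spot intensity, which the authors left background-subtracted within arrays and unscaled between them, per the file headers. Between 99.73% and 99.81% of the deposited table's values equalled the scanner values within a relative tolerance of 1e-04.

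Control and outlier spots were dropped and spots of 1 probe averaged. The log2 signal minus each array's 75th percentile was used, probes had to be well above background in a whole group, and the brightest probe stood for a gene. From 39429 probes, 23895 genes remained, with 34 lacking a value on some array; 26055 probes matched 19751 RefSeq symbols. limma 3.58.1 in R 4.3.3 fitted all 9 arrays, 1 mean a group (6 residual and 1.83 prior degrees of freedom), and its p-values were Benjamini-Hochberg adjusted. Normexp correction used the median spot and background signals with offset 50, since mean signals were not used here. The number of arrays limits the precision.

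Members and gene lists were chosen with earlier results of these data known. Named genes were curated messenger RNAs: the 12 widest gaps between groups in each direction, the 10 smallest p-values, the 6 largest rises and falls, the 4 smallest p-values per list, and 5 VEGF genes. The fit was tested on simulated data. Replicate numbers did not pair the pools, since same-numbered AAP and PBS pools correlated at 0.401, -0.283 and 0.13 in their deviations from group means. Some members of the lists are counted but not named here.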

Additional observations from a re-analysis of the deposited data

How the results depend on the processing

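Of 176 named genes, 154 kept 1 direction in every alternative run for them, which was 19 for 158 genes and 18 for the other 18; Vegfa, Flt1, Vegfc and haemoglobin genes are among those that did not. The count of 1 called transcript was 0 with normexp, quantile normalisation, median centring, no filter on dim probes, only the 6 arrays, the replicate block or AAP 2 alone, 60 with slide as a fixed block (AAP 1 against PBS), and 0 to 12 with a pool left out, 12 being without AAP 2. The count of 1631 genes at an unadjusted p under 0.05 was 308 with normexp, 4192 without the filter (32496 genes tested) and 1005 (without AAP 3) to 2759 (without AAP 2) with a pool left out. Of these, 720 of 1631 were lower in the main scaling, 881 of 1594 with quantile normalisation and 929 of 1427 with median centring. Genes lower in every AAP pool numbered 890 with normexp, 6952 for AAP 1 alone, 6603 for AAP 2 alone and 2404 to 3601 with a pool left out. Genes higher in every AAP pool numbered 2536 with normexp, 724 with median centring, 5013 without the filter, 6057 for AAP 1 alone, 5434 for AAP 2 alone and 1867 to 3341 with a pool left out. The complement median was -0.256 within the slide of AAP 1. The other causes were not tested.

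The replicate block gave 0 called genes and 1470 at an unadjusted p under 0.05; it rests on numbers that did not pair the pools. Counts of separated genes do not depend on the fit and have no value under the block, array weights, the random slide block or the 6-array fit.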

Other observations

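Tissue around the retina differed between pools of 1 group. Haemoglobin genes were at 1.11 (Hbb-b2) and 0.99 (Hbb-bt) from the PBS mean in AAP 1, and at -0.91 and -0.96 in AAP 2. Adipocyte genes had a median of 0.60 in AAP 1 and -0.09 and -0.12 in AAP 2 and AAP 3, with Fabp4, a fatty acid carrier, at 1.45 in AAP 1. Gpx3, a secreted antioxidant enzyme, differed from the PBS mean by -3.40, -0.31 and -4.86 in AAP 1 to 3 and lay at 2.94, -0.12 and 2.61 in the PBS pools, so PBS 2 and AAP 2 stood apart from the other pools of their groups. Lens genes had the same pools on the low or high side: their median was 1.02, -1.94 and 0.98 in PBS pools 1 to 3 and -1.27, 2.29 and -1.80 in AAP pools 1 to 3.

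Ribosomal protein genes had 0 of 46 separated in either direction and a median difference of 0.0022; without AAP 2, 12 of 46 were lower (26.1% against 15.1%). Oxidative phosphorylation genes had 4 of 38 higher in every AAP pool (10.5% against 5.96%), among them Cox5a at 0.11, 0.11 and 0.14, and a median of 0.02. With arrays centred on their median the count was 1 of 38 (2.63% against 3.03%) and the list median -0.0016. Circadian genes had 2 of 22 higher in every AAP pool (9.09% against 5.96%), or 8 of 22 without AAP 2 (36.4% against 14%). The count was 2 of 22 without AAP 1 (9.09% against 12.1%) and without AAP 3 (9.09% against 7.81%). Ciart was at 0.47 and Per1, another clock repressor, at 0.27 with overlapping pools.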
